A study of Homo sapiens with 32 samples.

Results

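The direct comparison of salinomycin (Sal) with dasatinib (Das) after 72 h took the 4 libraries of each drug, 8 of the 32 libraries of the series, and asked which genes told the drugs apart when no untreated library entered the test. The cells were MDA-MB-468, an established line of triple-negative breast cancer grown as 1 line in culture, and bulk RNA was sequenced. The study treated them with PBS (control), 0.5 µM Sal, 15 µM Das or both drugs together (S + D) for 24 h or 72 h. The doses of the drugs differ, so each difference is between these doses and not between equal amounts. The study's methods name 4 biological replicates per condition, of which 3 carry a number in the labels and 1 does not. Values are given in the order unnumbered library, replicate 1, replicate 2 and replicate 3, with n = 4 for each drug. Levels are given as CPM, a gene's counts relative to the size of its library, scaled by TMM factors over the 16 libraries of the time point, and a log2 difference is Sal minus Das. CPM is not corrected for gene length, so levels were compared between libraries and not between genes.

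Salinomycin is a polyether antibiotic that carries potassium and other cations across membranes and is known for its activity against breast cancer cells with stem-like properties. Dasatinib blocks tyrosine kinases, above all the ABL and SRC families. Signals from such kinases reach the nucleus partly through the ERK pathway, which switches on transcription factors such as EGR1 and the ETV factors as well as its own inhibitors, the dual-specificity phosphatases and Sprouty proteins. Entry into S phase is driven by E2F factors at the promoters of replication genes, whereas many genes of mitosis carry a CHR element through which they are silenced outside G2 and M phase. In bulk RNA, fewer cells in a phase of the cycle and less RNA per cell cannot be told apart.

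A library held between 29143860 and 40234975 counts with Sal and between 27812240 and 39373515 with Das, so that the depths of the drugs overlapped. The line's own markers EGFR, EPCAM, CDH1 and 5 keratins were present in all 8 libraries, with EGFR between 3972 and 5770.0 CPM. Of the receptors taken as low in a triple-negative line, PGR, the progesterone receptor, had 2 counts at most in any of the 8 libraries. The others were present. ESR1, the estrogen receptor alpha, lay between 8.03 and 9.6 CPM with Sal and between 8.55 and 11.7 CPM with Das. ERBB2 lay between 56.4 and 76.7 CPM with Sal and between 115 and 159 CPM with Das. Of 15 markers of other cell types, CD3E, COL1A2 and MYOD1 were at 0 in all 8 libraries, and the summed level of the list lay between 62.3 and 93.4 CPM with Sal and between 39.0 and 73.4 CPM with Das, most of it from COL1A1 and CD14. The endothelial cadherin CDH5 was the only one of the 4 markers tested that was called, at 0.315 to 0.529 CPM with Das and up to 0.0741 CPM with Sal. Some libraries stood apart from their groups. The unnumbered libraries of both drugs lay together on the second principal component (17% of the variance), at 39.94 and 37.74, against -19.84 to -2.22 for the other 6. On the first component (69.6%), Sal libraries lay between -46.44 and -37.70, whereas Das libraries lay at 41.68, 25, 32.12 and 77.49, with replicate 3 at the far end. For this reason counts are also given without Das replicate 3.

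A gene was called at an adjusted p under 0.01 (quasi-likelihood test of edgeR, adjusted by Benjamini-Hochberg over all genes tested) and an absolute log2 difference above 1.5, the cutoffs that the study's methods use. Of 15708 genes tested, 1171 (7.45%) passed both, 508 (3.23%) higher with Sal and 663 (4.22%) higher with Das. The adjusted p alone, used for single genes and members of lists, called 3344 genes (21.3%), 1531 (9.75%) higher with Sal and 1813 (11.5%) higher with Das, while the median log2 difference of all genes tested was 0.015. An unadjusted p under 0.05 was reached by 7695 of the 15708 genes, and DESeq2 called 4937 genes by adjusted p alone. Counts of list members under each rule are to be read beside these numbers for all genes. The 4 libraries of one drug all lay above the 4 of the other in 6195 genes (39.4%), and in 505 of the 508 and 657 of the 663 called genes. Without Das replicate 3, both cutoffs called 444 genes higher with Sal and 461 higher with Das. Of these, 402 and 450 were among the first, which is 79.1% and 67.9% of the calls from 8 libraries and 90.5% and 97.6% of those from 7. All 106 and 213 genes lost in this way kept their sign, and 55 and 130 of them still passed the adjusted p. By adjusted p alone, 2786 genes were called without Das replicate 3. Leaving out Sal replicate 1 gave the fewest calls by adjusted p alone (1520), followed by Sal replicate 2 (1726) and Sal replicate 3 (1906), and without Sal replicate 1 the genes higher with Das numbered 417.

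The largest differences toward Sal were in genes of varied roles, chosen by size among genes with at least 5 CPM and no overlap of the groups, and are given here as a description. FKBP10 (ENSG00000141756, chr17:39968932-39979465 on GRCh37), an isomerase of the endoplasmic reticulum (ER) that helps collagen to fold, had 5.81, 6.62, 6.33 and 5.77 CPM with Sal and 0.242, 0.374, 0.035 and 0.0308 CPM with Das. The log2 difference was 5.10 (SE 0.49, adjusted p = 9.88e-05). NLRP1 (ENSG00000091592, chr17:5402735-5522744), a sensor of the inflammasome, had 42.4, 42.5, 35.2 and 33.4 CPM with Sal and 1.31, 2.58, 2.17 and 0.0617 CPM with Das (log2 difference 4.67, SE 0.58, adjusted p = 0.000355). All Sal libraries lay above all Das libraries in both genes, as the choice required, and within Das the lowest level of NLRP1 was that of replicate 3. CUZD1 (ENSG00000138161, chr10:124591674-124605691), which encodes a membrane protein of secretory granules and shares 79.9% of its exon bases with other genes, had 119, 73.1, 93.3 and 105 CPM with Sal and 4.07, 6.98, 6.44 and 1.97 CPM with Das (log2 difference 4.34, SE 0.35, adjusted p = 4.74e-05). HTRA3 (ENSG00000170801, chr4:8271481-8308825), a secreted serine protease, had 10.3, 11, 10.5 and 10.7 CPM with Sal and 0.581, 0.872, 0.666 and 0 CPM with Das (log2 difference 4.33, SE 0.55, adjusted p = 0.000392). It was at 0 in all 4 control libraries of 72 h. The platelet receptor PEAR1 and the autophagy gene ATG9B differed by 4.39 and 4.12 on the log2 scale (SE 0.53 and 0.52), with every Das library at 1.40 CPM or less. The ERK-dependent genes EGR1 and ETV5 completed the 8 and are given with their pathway.

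The largest differences toward Das were led by MAPK4 (ENSG00000141639, chr18:48086457-48258196), an atypical MAP kinase. MAPK4 had 0.321, 0.724, 0.492 and 0.316 CPM with Sal and 63.8, 62.3, 65.9 and 51.8 CPM with Das, while the control libraries of 72 h held 2.25 to 5.60 CPM. Its log2 difference of -7.04 (SE 0.26, adjusted p = 3.43e-07) stood beside one of -6.39 at 24 h. SNCAIP (ENSG00000064692, chr5:121647049-121799914), which binds alpha-synuclein, was close to 0 with Sal (0.0247, 0.345, 0 and 0.0352 CPM) and uneven with Das (10.9, 3.30, 3.08 and 13.0 CPM), with a log2 difference of -6.25 (SE 0.84, adjusted p = 0.000515). SMOC1 (ENSG00000198732, chr14:70320848-70499083), a secreted calcium-binding protein of the matrix, had 0.914, 0.414, 0.59 and 0.703 CPM with Sal and 35.1, 22.8, 28.5 and 18.1 CPM with Das (log2 difference -5.28, SE 0.30, adjusted p = 6.19e-06) and differed by -6.57 at 24 h. DDIT4L (ENSG00000145358, chr4:101107027-101111939), an inhibitor of mTOR signalling, had 2.47, 0.448, 0.656 and 0.387 CPM with Sal and 46.9, 26.8, 30.2 and 10.0 CPM with Das (log2 difference -4.77, SE 0.63, adjusted p = 0.000496). The unnumbered library was the highest of both groups for DDIT4L, without an overlap. CRISP2, a cysteine-rich secretory protein (-4.48), the serine hydrolase-like gene SERHL2 (-4.45), C6orf141 (-4.34) and HGD, which breaks down homogentisate in tyrosine catabolism (-4.15), followed on the log2 scale, with SE between 0.27 and 0.45. SERHL2 shares 46.0% of its exon bases with other genes. The plot of the 16 largest genes by library shows these levels. Their calls held in all 16 alternative fits, among them that without Das replicate 3.

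**Figure D1:**
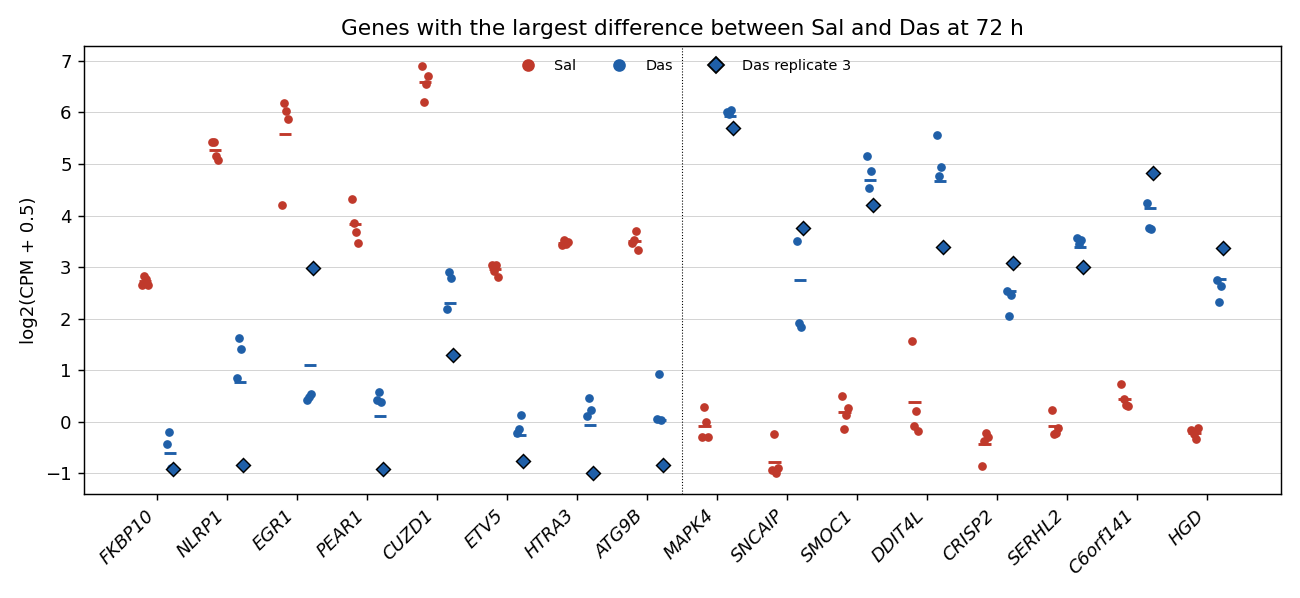
Level of the 8 genes with the largest difference toward Sal and the 8 toward Das, as log2(CPM + 0.5) in each library of 72 h, with Das replicate 3 drawn as a diamond. The 16 genes were chosen among those in which the Sal and Das libraries do not overlap. MAPK4 reads 51.8 to 65.9 CPM with Das against 0.724 CPM at most with Sal.

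Genes of mitosis and the spindle lay lower with Sal than with Das. Of 26 tested, 21 were higher with Das and 0 higher with Sal by adjusted p in edgeR (24 and 0 at an unadjusted p under 0.05, 23 and 0 in DESeq2), against 11.5% and 9.75% of all genes, and the median log2 difference was -1.69. CENPE, a kinesin of the kinetochore, had 15.1, 12.3, 13.9 and 13.7 CPM with Sal and 47.7, 43.7, 56.3 and 137 CPM with Das (log2 difference -2.36, SE 0.34, adjusted p = 0.000726). TOP2A, the topoisomerase that untangles chromosomes, had 81.0, 45.9, 48.2 and 51.0 CPM with Sal and 256, 147, 169 and 483 CPM with Das (log2 difference -2.21, SE 0.36, adjusted p = 0.00129). MKI67, the source of the Ki-67 proliferation antigen, had 57.1, 35.3, 30.6 and 34.8 CPM with Sal and 165, 116, 136 and 475 CPM with Das (log2 difference -2.49, SE 0.43, adjusted p = 0.00172). The groups did not overlap in any of the 3 genes, and Das replicate 3 was the highest library in each. The mitotic kinase PLK1 differed by -2.06, the spindle kinesin KIF20A by -2.74 and the kinetochore protein CENPF by -2.17 on the log2 scale. AURKA, CDC20, KIF11, MAD2L1 and TTK did not pass the test, CDC20 with a log2 difference of -1.59 (adjusted p = 0.0163) and AURKA with -0.40 (adjusted p = 0.157). Without Das replicate 3, 19 members were called with a median of -1.27. The count fell further without a numbered Sal library, to 4 without replicate 1, 10 without replicate 2 and 12 without replicate 3, while the medians were -1.61, -1.61 and -1.60.

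The promoters of 3 mitosis genes are shown because they are the called members with the largest differences among those that hold the CHR letters TTTGAA, on either strand, in the 250 bases before the start of the gene. The sequences are those of RefSeq on GRCh38.p14, read 5′ to 3′ along the gene, with the CHR letters in capitals. MKI67 lies at chr10:128126424-128126673 on the minus strand, TOP2A at chr17:40417897-40418146 on the minus strand and PLK1 at chr16:23678639-23678888 on the plus strand.
MKI67: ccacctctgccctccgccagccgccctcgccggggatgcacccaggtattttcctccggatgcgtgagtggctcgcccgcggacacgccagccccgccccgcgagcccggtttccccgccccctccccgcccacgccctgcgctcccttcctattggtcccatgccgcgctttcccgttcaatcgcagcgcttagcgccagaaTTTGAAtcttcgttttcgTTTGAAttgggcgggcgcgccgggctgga
TOP2A: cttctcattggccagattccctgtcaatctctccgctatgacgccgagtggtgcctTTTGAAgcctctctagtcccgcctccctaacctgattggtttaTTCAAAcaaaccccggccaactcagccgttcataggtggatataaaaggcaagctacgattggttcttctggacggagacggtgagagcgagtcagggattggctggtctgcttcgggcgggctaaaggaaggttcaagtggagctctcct
PLK1: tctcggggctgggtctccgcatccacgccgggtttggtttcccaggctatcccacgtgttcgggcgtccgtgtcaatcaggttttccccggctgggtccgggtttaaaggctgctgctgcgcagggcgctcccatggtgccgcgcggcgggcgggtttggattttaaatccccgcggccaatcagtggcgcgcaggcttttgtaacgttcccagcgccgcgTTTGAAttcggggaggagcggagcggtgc
The letters begin 47 and 29 bases before the start of MKI67 and 29 bases before that of PLK1, and TOP2A holds them 194 bases before its start and, on the other strand, 151 bases before it. Of the 22 mitosis genes with a promoter in the table, 13 (59.1%) held TTTGAA, against 13.6% of 27305 promoters and 8.32% of the 11297 promoters of genes tested. Among genes past both cutoffs, 16.1% of the 460 promoters of genes higher with Das and 9.49% of the 316 of genes higher with Sal held it. Of the 13 mitosis genes with the letters, 11 were higher with Das, beside 21 of all 26 mitosis genes tested. A difference between members with and without the letters was not tested. Such a match is a description of the sequence, and binding at these promoters was not measured.

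The mitosis genes pointed the other way at 24 h. All 26 had a log2 difference above 0 at 24 h (median 0.57), although only 1 passed the test there, and all 26 lay below 0 at 72 h. At 24 h, 406 of 15703 genes (2.59%) passed the adjusted p and 160 (1.02%) both cutoffs, or 100 without Das replicate 1 or 2 of 24 h, 103 without Sal replicate 1 and 106 without Sal replicate 3. CENPE had 41.6, 129, 158 and 117 CPM with Sal and 57.5, 73.3, 83.8 and 86.3 CPM with Das at 24 h, where the unnumbered Sal library lay below all 4 Das libraries and the other 3 above them. TOP2A had 239, 493, 548 and 465 CPM with Sal and 299, 249.8, 269 and 263 CPM with Das at that time. The change of the Sal to Das difference from 24 to 72 h was tested in a fit of the 16 libraries concerned. It passed both cutoffs in 531 of 16475 genes (3.22%), 130 toward Sal and 401 toward Das, and passed the adjusted p toward Das in 3.81% of genes and in 24 of 26 mitosis genes (median change -2.26). Without Das replicate 3 of 72 h, 338 genes passed both cutoffs and 21 mitosis genes the adjusted p, with a median change of -1.81. Leaving out Sal replicate 1 of 24 h gave 13 mitosis genes, Sal replicate 2 of 24 h gave 14, Das replicate 2 of 24 h gave 16, Sal replicate 1 of 72 h gave 16, and Sal replicates 2 and 3 of 72 h gave 15 each. The number of genes past both cutoffs for the change was 248 to 338 without any 1 of the numbered libraries of 24 h. It was 301, 279 and 290 without Sal replicate 1, 2 or 3 of 72 h, and 880 without the unnumbered Sal library of 24 h.

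The levels of these genes in each library were also set against the mean of the control. At 72 h the median of the mitosis genes lay at -1.97, -2.9, -2.75 and -2.85 on the log2 scale in the Sal libraries and at -0.865, -1.53, -1.32 and 0.0444 in the Das libraries. All Sal libraries were thus below all Das libraries, and Das replicate 3 was at the level of the control. At 24 h the medians were -1.14, -0.448, -0.324 and -0.521 with Sal and -0.981, -1.26, -1.18 and -1.23 with Das, so that the unnumbered Sal library lay among the Das libraries. The 72 h libraries that received both drugs lay at -2.35, -3.17, -3.32 and -3.29, with the unnumbered library the highest.

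**Figure D2:**
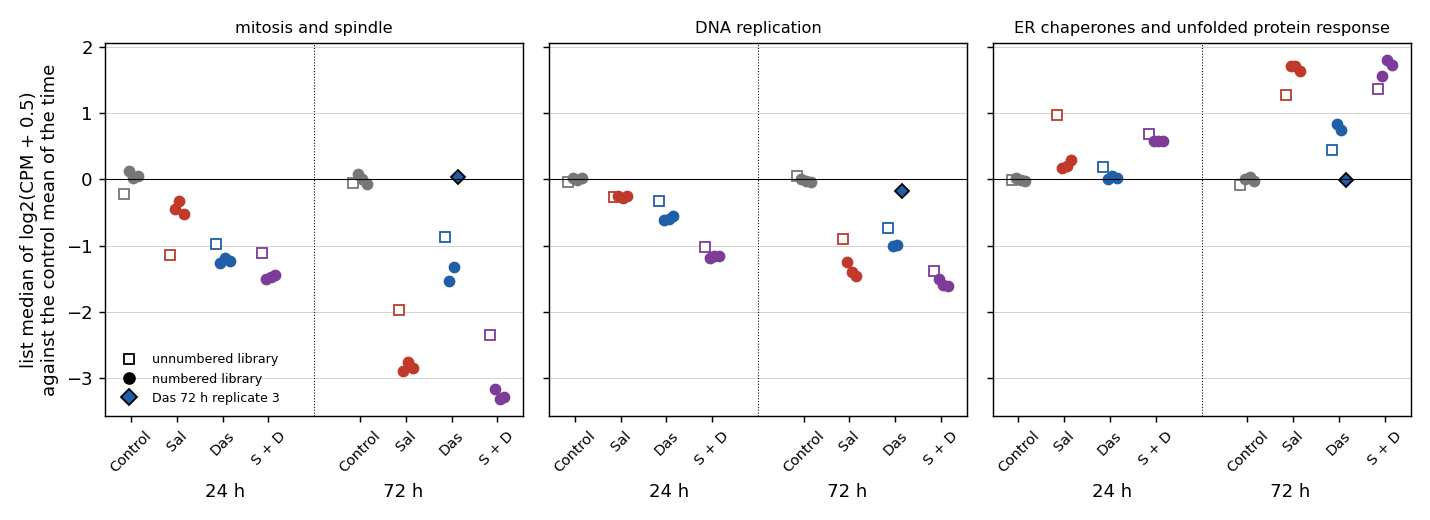
Median log2 level of the genes of mitosis, DNA replication and ER chaperones in each library of the control, Sal, Das and S + D, at 24 h and 72 h. Levels are relative to the mean of the control libraries of the same time point (0). Open squares are the unnumbered libraries and diamonds are Das replicate 3 of 72 h, which lies at 0.0444 for mitosis, away from the other 3 Das libraries.

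Genes of DNA replication differed less. Of 32 tested, 8 were higher with Das and 0 higher with Sal, against 11.5% and 9.75% of all genes. The median log2 difference was -0.46. At an unadjusted p under 0.05 edgeR gave 16 and 2, and DESeq2 called 11 and 0. For all 15708 genes, 7695 passed that unadjusted p and DESeq2 called 4937. TYMS, which makes thymidylate, had 48.3, 24.2, 24.8 and 22.0 CPM with Sal and 114, 65.6, 73.3 and 193 CPM with Das (log2 difference -1.89, SE 0.36, adjusted p = 0.00283), and its unnumbered Sal library was the highest of its group. RRM2, the small subunit of ribonucleotide reductase, had 61.1, 25.3, 20.1 and 20.8 CPM with Sal and 120.3, 84.9, 103 and 395 CPM with Das (log2 difference -2.46, SE 0.54, adjusted p = 0.00521), with Das replicate 3 far above the rest. The groups did not overlap in either gene. The clamp loader subunits RFC5 (-1.19) and RFC3 (-1.02), the polymerase POLE (-1.23) and the GINS subunits GINS1 (-1.63), GINS2 (-1.49) and GINS3 (-1.08) were the other members called. Of the helicase subunits, MCM7 gave a log2 difference of -0.84 (adjusted p = 0.0101) and MCM2 one of -0.88 (adjusted p = 0.0389). Without Das replicate 3 the count was 5 higher with Das and 1 higher with Sal, without the unnumbered Das library 5 were higher with Das, and without Sal replicate 1, 2 or 3 it was 0 higher with Das in each case. TYMS, RFC5 and RRM2 all missed the threshold in these 3 fits, with adjusted p up to 0.0153, 0.0162 and 0.025. TYMS shares 47.9% of its exon bases with other genes.

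The E2F letters searched were TTTCCCGC, TTTCGCGC, TTTGCCGC and TTTGGCGC on either strand. Of the 29 replication genes with a promoter in the table, 12 (41.4%) held at least 1 of these, against 2.79% of all promoters and 4.34% of those of genes tested. Of these 12 genes, 4 were higher with Das, beside 8 of all 32 replication genes tested. The promoters of TYMS (chr18:657403-657652 on the plus strand) and GINS2 (chr16:85688955-85689204 on the minus strand) are printed, as GRCh38.p14 has them, as the pair of called members with the largest differences among them, with the match in capitals.
TYMS: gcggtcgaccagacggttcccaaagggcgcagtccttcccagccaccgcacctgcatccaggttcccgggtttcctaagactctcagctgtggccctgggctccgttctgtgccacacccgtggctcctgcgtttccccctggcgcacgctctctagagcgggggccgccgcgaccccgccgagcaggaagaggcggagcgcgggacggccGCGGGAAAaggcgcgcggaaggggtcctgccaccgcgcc
GINS2: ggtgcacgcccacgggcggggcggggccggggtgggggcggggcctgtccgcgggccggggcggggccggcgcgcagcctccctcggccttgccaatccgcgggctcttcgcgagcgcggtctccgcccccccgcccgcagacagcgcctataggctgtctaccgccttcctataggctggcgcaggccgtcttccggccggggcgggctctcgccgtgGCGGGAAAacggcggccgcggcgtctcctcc
In both genes the match reads GCGGGAAA along the gene, the other strand of TTTCCCGC, and begins 39 and 31 bases before the start. Among genes past both cutoffs, 5.87% of the promoters of those higher with Das and 3.16% of those higher with Sal held the E2F letters.

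Among the regulators of G1/S passage, 6 of 25 were higher with Das and 4 higher with Sal, against 11.5% and 9.75% of all genes. The list includes genes that the study reports as changed by Sal in these same samples, among them CCNA2, SKP2, E2F1 and ESR2. Its counts are therefore not independent evidence of a direction. MYC, a driver of growth, had 19.6, 22.1, 20.4 and 19.6 CPM with Sal and 67.6, 50.0, 51.2 and 96.9 CPM with Das (log2 difference -1.69, SE 0.21, adjusted p = 0.000339). CCNA2, the cyclin of S phase, had 19.6, 12.8, 12.5 and 11.8 CPM with Sal and 50.2, 39.6, 44.7 and 125 CPM with Das (log2 difference -2.18, SE 0.36, adjusted p = 0.00137). The groups did not overlap in either gene. SKP2, which marks CDK inhibitors for degradation (-1.16), the pocket protein RBL1 (-1.41), CDK2 (-0.93) and E2F1 (-1.82) were the other members higher with Das. E2F1 and CDK2 lost their call when any of the 3 numbered Sal libraries was left out, without Das replicate 3 (adjusted p = 0.0211 and 0.0101) and without the unnumbered Das library. CDKN1A, the inhibitor p21, had 139.8, 80.7, 74.0 and 73.9 CPM with Sal and 53.7, 36.8, 31.4 and 27.9 CPM with Das (log2 difference 1.31, SE 0.26, adjusted p = 0.00314), so that it was higher with Sal in every library. The inhibitor CDKN2B (0.96) and the cyclin CCND3 (0.96) were also higher with Sal, and 1 member was called in this direction without Sal replicate 1. ESR2, the estrogen receptor beta, had 1.09, 2.00, 1.41 and 1.83 CPM with Sal and 0.194, 0.187, 0.35 and 0.277 CPM with Das (log2 difference 2.65, SE 0.33, adjusted p = 0.000366), against a control mean of 0.0679 CPM. CCND1, the cyclin D1 gene, had 51.9, 49.3, 46.6 and 45.7 CPM with Sal and 56.7, 49.8, 51.3 and 97.7 CPM with Das and did not pass the test (log2 difference -0.39, adjusted p = 0.152). CCNE2, CDC25A, E2F2, E2F7 and E2F8 had log2 differences between -1.86 and -0.92 and adjusted p between 0.0174 and 0.0577. The calls of these 5 genes depended on the fit. DESeq2 called CCNE2, CDC25A, E2F7 and E2F8 (adjusted p = 0.000952, 0.00389, 0.000615 and 0.00304), and with them 10 members were higher with Das. Without the unnumbered Sal library edgeR called CDC25A, E2F2 and E2F7 (adjusted p = 0.0068, 0.00943 and 0.00514), and in the numbered libraries without Das replicate 3 it called all 5 (adjusted p up to 0.00794).

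Targets of the ERK pathway split between the drugs. Of 19 tested, 5 were higher with Sal and 4 higher with Das, against 9.75% and 11.5% of all genes. The median log2 difference was 0.55, and the same counts held without Das replicate 3. EGR1 (ENSG00000120738, chr5:137801168-137804992), an immediate-early transcription factor, had 17.9, 72.2, 65.1 and 58.3 CPM with Sal and 0.848, 0.903, 0.946 and 7.40 CPM with Das (log2 difference 4.41, SE 0.76, adjusted p = 0.00164). Das replicate 3 was the highest of its group, and without it the log2 difference was 5.90. ETV5 (ENSG00000244405, chr3:185764103-185828107), an ETS factor, had 7.73, 7.07, 7.77 and 6.54 CPM with Sal and 0.363, 0.405, 0.595 and 0.0925 CPM with Das (log2 difference 4.33, SE 0.37, adjusted p = 5.5e-05). Both genes were lower with either drug than in the control, whose means were 223 CPM for EGR1 and 20.8 CPM for ETV5. FOSL1, a partner in the AP-1 dimer, had 3.06, 2.38, 2.23 and 1.76 CPM with Sal and 0.291, 0.311, 0.175 and 0.216 CPM with Das (log2 difference 3.23, SE 0.30, adjusted p = 8.69e-05). The inhibitor SPRY4 (2.86) and the ETS factor ETV4 (2.43) were the other members higher with Sal, and EGR1, ETV5, FOSL1, SPRY4 and ETV4 were also higher with Sal at 24 h, by 3.47, 2.94, 2.68, 2.16 and 3.12 on the log2 scale with adjusted p up to 0.00267.

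DUSP4, the nuclear phosphatase that switches ERK off, went the other way. It had 25.3, 29.8, 29.1 and 29.9 CPM with Sal and 142, 139, 149 and 132 CPM with Das (log2 difference -2.29, SE 0.12, adjusted p = 2.78e-06), while the control mean was 168 CPM. At 24 h the log2 difference of DUSP4 was -0.36 (adjusted p = 0.205), and the change between the times passed the test (adjusted p = 0.000159). The ephrin receptor EPHA4 (-1.87), PHLDA1 (-1.36) and the Sprouty gene SPRY1 (-1.05) were also higher with Das. DUSP6, the cytoplasmic ERK phosphatase, had 1.33, 1.55, 1.67 and 1.41 CPM with Sal and 0.218, 0.903, 0.841 and 1.11 CPM with Das, a log2 difference of 0.98 that did not pass the test (adjusted p = 0.0716), against a control mean of 19.1 CPM.

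**Figure D3:**
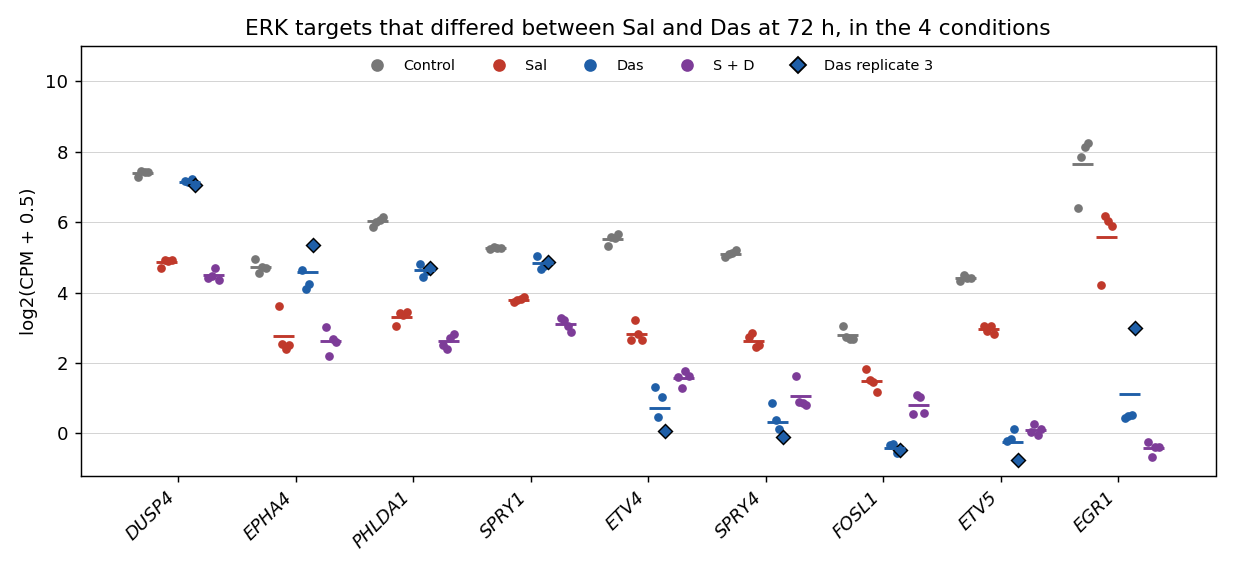
Level of the 9 ERK targets called between Sal and Das at 72 h, as log2(CPM + 0.5) in each library of the control, Sal, Das and S + D. EGR1, ETV5, FOSL1, SPRY4 and ETV4 sit lower with Das than with Sal, and DUSP4, with 25.3 to 29.9 CPM, sits below Das with Sal.

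Of 14 kinases that dasatinib binds or that belong to their families, 3 were higher with Das and 1 higher with Sal. Over all genes the shares were 11.5% and 9.75%. SRC had 13.5, 9.86, 10.5 and 11.5 CPM with Sal and 31.1, 23.3, 20.8 and 34.9 CPM with Das (log2 difference -1.27, SE 0.19, adjusted p = 0.000955). FYN, another SRC-family kinase, had 16.3, 11.6, 15.0 and 13.5 CPM with Sal and 44.9, 30.4, 34.6 and 31.4 CPM with Das (log2 difference -1.32, SE 0.17, adjusted p = 0.000445). The control mean lay at 13.3 CPM for FYN, near Sal, and at 54.2 CPM for SRC, above both drugs. The ephrin receptor EPHB4 was higher with Das (-0.84), and the collagen receptor DDR2 was higher with Sal, at 9.46, 8.03, 9.87 and 8.79 CPM against 3.29, 2.21, 2.94 and 0.894 CPM (log2 difference 1.95, SE 0.33, adjusted p = 0.00152). YES1 and ABL1 gave log2 differences of -0.04 (adjusted p = 0.862) and -0.44 (adjusted p = 0.0267). Of 11 receptors and ligands of the EGFR family, ERBB2 (-1.05, adjusted p = 0.00066), ERBB3 (-0.85, adjusted p = 0.00189) and the ligand EGF (-0.95, adjusted p = 0.00505) were higher with Das. The ligand HBEGF was higher with Sal (0.83, adjusted p = 0.00434), a call lost when any of the 3 numbered Sal libraries was left out or without Das replicate 2, with adjusted p up to 0.0141. EGFR itself, the receptor amplified in this line, did not pass the test (-0.12, adjusted p = 0.551).

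Of 19 genes of STAT3, Wnt and hedgehog signalling that the study lists, 6 were higher with Das and 1 higher with Sal. Over all genes the shares were 11.5% and 9.75%. The 19 are those among its pathway targets that the study picked on these samples as lower than the control with each treatment, and the other targets were not analysed here. The list is therefore not independent evidence of a direction. SFRP1, a secreted inhibitor of Wnt ligands, had 35.1, 36.5, 39.0 and 37.1 CPM with Sal and 178, 181, 212 and 237 CPM with Das (log2 difference -2.44, SE 0.13, adjusted p = 3.86e-06). CD44, the hyaluronan receptor used as a marker of breast cancer stem cells, had 209, 178, 185 and 197 CPM with Sal and 754, 850.5, 913 and 1458 CPM with Das (log2 difference -2.36, SE 0.20, adjusted p = 5.91e-05). In both genes the Sal libraries lay in a narrow band below all Das libraries, and the control means of 303 and 1752 CPM lay above the mean of either drug. SFRP1 gave -0.37 (adjusted p = 0.425) and CD44 gave 0.12 (adjusted p = 0.854) at 24 h, and the change passed the test for both (adjusted p = 0.00105 and 0.00112). The Wnt target AXIN2 (-1.73) and the ligand WNT10B (-3.65, at 1.85 CPM or less), together with MYC and BIRC5, were the other members higher with Das, and the ligand WNT10A was higher with Sal (1.49).

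Of 24 integrins, laminins and matrix genes, 6 were higher with Das and 2 higher with Sal, against 11.5% and 9.75% of all genes. LAMB3, the beta chain of laminin-332, had 16.9, 8.55, 6.53 and 5.34 CPM with Sal and 1.53, 0.747, 0.56 and 0.432 CPM with Das (log2 difference 3.49, SE 0.47, adjusted p = 0.000534). Its partner chain LAMA3 was higher with Das (-1.64, adjusted p = 0.00724), with overlapping groups. FN1, fibronectin, had 30.9, 8.93, 7.31 and 6.33 CPM with Sal and 181, 46.9, 61.6 and 117 CPM with Das (log2 difference -2.92, SE 0.58, adjusted p = 0.00324), and the unnumbered library was the highest of both groups. ITGB6 (-0.92), ITGA2 (-0.69), LAMB1 (-0.90) and THBS1 (-1.13) were higher with Das and the matrix glycoprotein TNC higher with Sal (2.79). The number higher with Das was 2 without Sal replicate 1, 2 or 3 and 4 without Das replicate 3, and of the 24 genes the number higher with Sal was 1 without Sal replicate 1 or 2 or without Das replicate 3. MMP9, which the filter on low counts removed from the 8 libraries, could be tested without Das replicate 3 and was then higher with Sal, which makes 2 members. ITGA2 lost its call without Das replicate 2 (adjusted p = 0.0103). Of 26 keratins and junction genes, 3 were higher with Das and 1 higher with Sal, against the same 11.5% and 9.75% of all genes. The hair keratin KRT81 had 263, 277, 243 and 229.5 CPM with Sal and 697, 739, 693 and 474 CPM with Das (log2 difference -1.35, SE 0.16, adjusted p = 0.000241), and KRT7 differed by -1.02 (adjusted p = 0.00159). The basal keratin KRT14, lost without Sal replicate 1 or 2 (adjusted p = 0.0139 and 0.0111), differed by -1.93, and ZEB1, a repressor of epithelial genes, lay below 1 CPM in all 8 libraries. Without the unnumbered Sal library, 5 keratin and junction genes were higher with Das, and the call of ZEB1 was lost when any of the 3 numbered Sal libraries was left out.

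Chaperones of the ER and other genes of its unfolded protein response lay higher with Sal. Of 19 tested, 8 were higher with Sal and 1 higher with Das, against 9.75% and 11.5% of all genes. The median log2 difference was 0.93. HSPA5, the chaperone BiP, had 3989.5, 3693, 3963 and 3846 CPM with Sal and 1156, 1454, 1285 and 371 CPM with Das (log2 difference 1.87, SE 0.33, adjusted p = 0.002). HSP90B1, the ER form of HSP90, had 2592, 3059, 3292 and 3304 CPM with Sal and 1099.7, 1491, 1399 and 838 CPM with Das (log2 difference 1.35, SE 0.19, adjusted p = 0.000665). In both genes Das replicate 3 was the lowest library and close to the control means of 374 and 933 CPM. PDIA4 (1.01), DNAJB9 (1.10), DNAJB11 (1.25), HYOU1 (1.22), DNAJC3 (1.02) and EDEM1 (0.80) were the other members higher with Sal. XBP1, the transcription factor of the response, went the other way, with 416, 308, 338 and 343 CPM with Sal and 1403, 818, 877 and 1318 CPM with Das (log2 difference -1.65, SE 0.20, adjusted p = 0.00033). Without Das replicate 3, 9 members were higher with Sal, with a median of 0.72, and without Sal replicate 1 or 2 the count was 4 or 5. Per library, the median of these genes relative to the control was 1.27, 1.71, 1.71 and 1.64 with Sal and 0.446, 0.831, 0.741 and -0.0101 with Das on the log2 scale, without an overlap.

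Of 23 genes of the ATF4 stress response, amino acid supply and tRNA charging, 3 were higher with Das and 1 higher with Sal. Over all genes the shares were 11.5% and 9.75%. SLC7A5, an amino acid transporter, had 691, 535, 474 and 458 CPM with Sal and 2191, 1499.7, 1389 and 828 CPM with Das (log2 difference -1.45, SE 0.26, adjusted p = 0.00216). PHGDH, of serine synthesis (-1.02), and the asparagine synthetase ASNS (-0.76, adjusted p = 0.00483) were also higher with Das, and the tRNA synthetase WARS1 was higher with Sal (1.24, adjusted p = 0.00138). DDIT3, the stress factor CHOP, had 180.4, 150.5, 162 and 162 CPM with Sal and 86.4, 78.0, 68.7 and 17.1 CPM with Das. It did not pass the test in all 8 libraries (1.40, adjusted p = 0.0137) and did without Das replicate 3 (1.08, adjusted p = 0.000324), when 4 members were higher with Sal. Without Sal replicate 1, 2 or 3 the members higher with Das numbered 0, 1 and 1, SLC7A5 having an adjusted p of 0.0113 without replicate 1 and PHGDH one of up to 0.0173, and without the unnumbered Das library 2 were higher with Sal. The ATF4 element TGATGNAA, on either strand, stood in 4 (21.1%) of 19 promoters of the list, against 3.19% of all promoters and 1.48% of those of genes tested. ASNS (chr7:97872409-97872658 on the minus strand) was the only called gene among these 4, and its promoter on GRCh38.p14 is shown with the element, 68 bases before the start, in capitals.
ASNS: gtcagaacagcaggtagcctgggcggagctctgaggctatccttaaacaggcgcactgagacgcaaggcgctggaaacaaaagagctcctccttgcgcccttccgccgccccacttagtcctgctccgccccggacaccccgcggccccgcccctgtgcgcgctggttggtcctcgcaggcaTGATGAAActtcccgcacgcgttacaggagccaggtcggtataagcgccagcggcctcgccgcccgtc

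Smaller numbers of genes were called in the metabolic lists, beside 9.75% of all genes higher with Sal and 11.5% higher with Das. All 4 called of 20 genes of oxidative phosphorylation were higher with Sal, with ATP5MC1 of the ATP synthase at 128, 100.1, 113 and 116 CPM with Sal and 55.1, 68.5, 59.0 and 47.0 CPM with Das (log2 difference 1.01, SE 0.14, adjusted p = 0.0006). Cytochrome c (CYCS, 1.11), SDHB (0.64) and NDUFS1 (0.92) were the others. Of 22 genes of glycolysis and the hypoxia response, ALDOA (1.29, adjusted p = 0.00128) and BNIP3 (0.93, adjusted p = 0.00329) were higher with Sal. The call of BNIP3 was lost when any of the 3 numbered Sal libraries was left out (adjusted p up to 0.0126), whereas 9 members of the list were higher with Sal without the unnumbered Das library. ALDOA, an enzyme of glycolysis, shares 54.2% of its exon bases with other genes. Of 24 genes of the lysosome, V-ATPase and autophagy, 4 were higher with Sal and 3 higher with Das. The protease CTSL had 33.9, 33.6, 31.3 and 31.7 CPM with Sal and 78.8, 72.3, 74.4 and 58.4 CPM with Das (log2 difference -1.11, SE 0.13, adjusted p = 0.000224). LAMP1 (0.65), ATP6V0A1 (0.70), ATP6V1H (0.62) and MAP1LC3B (1.14) were higher with Sal, and LAMP2 (-0.46) and NPC2 (-0.64) higher with Das. The lysosome counts moved between 1 and 3 in each direction with a library left out, 1 higher with Sal without Sal replicate 1 or 2, 2 without Sal replicate 3, the unnumbered Sal library or Das replicate 2, and 1 higher with Das when any of the 3 numbered Sal libraries was left out or without Das replicate 1 or 2. ATP6V0A1 had an adjusted p of 0.0108 without Sal replicate 1 and LAMP1 one of 0.0117 without Sal replicate 2.

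The number of sterol synthesis genes called depended on the fit. Of 26 tested, 3 were higher with Das and 0 higher with Sal in edgeR, against 11.5% and 9.75% of all genes. The counts were 9 and 1 at an unadjusted p under 0.05, which 7695 of all 15708 genes passed. They were 5 and 0 in DESeq2, which called 4937 of all genes, and the median log2 difference was -0.21. EBP, a late enzyme of cholesterol synthesis, had 86.7, 84.4, 75.7 and 73.2 CPM with Sal and 99.2, 116, 115 and 125 CPM with Das (log2 difference -0.50, SE 0.12, adjusted p = 0.00746), without an overlap. It lost its call in 6 of the 8 fits with a library left out (adjusted p up to 0.0315). The number of sterol genes higher with Das was 1 without Sal replicate 1, 2 without Das replicate 3, 5 without the unnumbered Das library, 7 with a batch term for the unnumbered libraries, 8 in the numbered libraries and 12 in the numbered libraries without Das replicate 3, while the number higher with Sal stayed at 0 in these fits. Of 13 genes of LXR action and lipid transport, LIPG (-1.12, adjusted p = 0.00102), APOC1 (-2.82, at 0.484 CPM or less) and LPCAT3 (-0.70) were higher with Das and NR1H3, the receptor LXR alpha, higher with Sal (0.62). NR1H3 lost its call in 7 of the 8 fits with a library left out, that without the unnumbered Das library being the exception. LPCAT3 lost it when any of the 3 numbered Sal libraries was left out (adjusted p up to 0.013) and APOC1 without Sal replicate 1 (0.0119), when 1 member was higher with Das, and 5 were without the unnumbered Sal library. LPCAT3 and APOC1 share 66.0% and 40.7% of their exon bases with other genes.

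Of 21 interferon-stimulated and MHC class I genes, 6 were higher with Sal and 3 higher with Das, against 9.75% and 11.5% of all genes. OAS2, which makes the signal for RNase L, had 0.964, 0.551, 0.623 and 0.422 CPM with Sal and 6.15, 3.15, 3.29 and 6.69 CPM with Das (log2 difference -2.88, SE 0.36, adjusted p = 0.000356). BST2, which tethers budding virus, had 15.9, 25.7, 19.5 and 19.9 CPM with Sal and 8.99, 4.73, 5.29 and 5.33 CPM with Das (log2 difference 1.74, SE 0.24, adjusted p = 0.000597). MX1 (-1.33) and B2M (-0.59) were higher with Das, and STAT2 (1.23), PSMB9 (0.96), IFI44L (2.08), IFIT1 (0.85) and IRF7 (1.15) higher with Sal, so that the list had no common direction (median log2 difference 0.039). Without Sal replicate 1, 1 member was higher with Sal. Of 11 cytokine and chemokine genes, the iron-binding lipocalin LCN2 had 407, 416, 415 and 419 CPM with Sal and 154, 136, 119.9 and 59.2 CPM with Das (log2 difference 1.83, SE 0.24, adjusted p = 0.000504). The adhesion molecule ICAM1 was higher with Sal (1.02) and the NF-kappaB inhibitor NFKBIA higher with Das (-0.71), but both calls were lost when any of the 3 numbered Sal libraries was left out, and that of ICAM1 also without Das replicate 1 or 2 (adjusted p up to 0.0311 and 0.0172).

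NQO1, an NRF2 target, had 168, 102, 111 and 115 CPM with Sal and 458, 327, 363 and 399.8 CPM with Das (log2 difference -1.63, SE 0.18, adjusted p = 0.00021). The iron exporter SLC40A1 was higher with Das (-2.14, adjusted p = 0.000445), whereas the ferritin light chain FTL had 1357, 1365, 1396 and 1449 CPM with Sal and 538, 604, 539 and 189 CPM with Das (log2 difference 1.58, SE 0.29, adjusted p = 0.00233). With the metallothionein MT1X (1.38), whose reads may be shared with its near-identical paralogs, and the iron importer SLC11A2 (0.54), 3 of the 19 genes of this list were higher with Sal and 2 higher with Das, and 1 was higher with Sal without Sal replicate 1. Of 17 genes of the BCL2 family and death receptors, the BH3-only gene BCL2L11 (-1.29, adjusted p = 0.00179) and FAS (-2.01, adjusted p = 0.0032) were higher with Das. By adjusted p in edgeR, 11.5% of all genes were higher with Das and 9.75% higher with Sal. FAS lost its call when any of the 3 numbered Sal libraries was left out (adjusted p up to 0.0148), and 4 members were higher with Das without the unnumbered Sal library. Of 16 genes of ion pumps and the osmotic response, 4 were higher with Das and 0 higher with Sal in edgeR, 5 and 3 at an unadjusted p under 0.05, and 5 and 2 in DESeq2. ATP1B1, the beta subunit of the sodium pump, had 95.7, 75.4, 89.0 and 84.3 CPM with Sal and 191, 163, 179 and 225 CPM with Das (log2 difference -1.13, SE 0.14, adjusted p = 0.000315). The cotransporter SLC12A2 (-1.07) and the pump regulator FXYD3 (-1.16) were also among them, and the count was 1, 2 and 2 without Sal replicate 1, 2 or 3 and 2 without the unnumbered Das library, SLC12A2 having an adjusted p of 0.0123 without Sal replicate 1 and FXYD3 one of up to 0.0238. Of 17 YAP and TEAD targets, edgeR called 1 higher with Sal and 0 higher with Das in the 8 libraries, namely AMOTL2 (0.83, adjusted p = 0.00213, and 0.0109 without Sal replicate 1), while CCN1 and CCN2 had adjusted p of 0.106 and 0.225. At an unadjusted p under 0.05 the counts were 7 and 4, DESeq2 called 4 and 0, and a batch term for the unnumbered libraries gave 4 and 3. For all 15708 genes the numbers were 7695 at that unadjusted p, 4937 in DESeq2 and 5340 with the batch term.

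Leaving out Das replicate 3 alone also changed the counts of other lists. Over all genes, that fit called 2786 by adjusted p alone, in place of 3344. The members higher with Sal and higher with Das then numbered 3 and 4 for G1/S control, 1 and 2 for the kinases, 3 and 3 for the lysosome and 5 and 3 for the interferon-stimulated genes. They numbered 1 and 5 for the STAT3, Wnt and hedgehog genes, 3 and 1 for the cytokines, 0 and 3 for LXR action, 2 and 2 for the NRF2 targets and 1 and 3 for the ion pumps. When the unnumbered libraries were left out together with it, a fit chosen after seeing the data, 5775 genes passed the adjusted p in place of 3344 and the counts of many lists were higher. There, 2 and 15 genes of DNA replication, 5 and 12 of G1/S control, 9 and 5 ERK targets and 7 and 3 YAP and TEAD targets were called. The ER chaperones gave 15 and 1, the ATF4 genes 5 and 8, the glycolysis genes 12 and 0, the keratins and junctions 4 and 6 and the integrins and matrix genes 4 and 8. For LXR action the counts were 2 and 5, for the NRF2 targets 6 and 4 and for the BCL2 family 3 and 6. DESeq2 in the 8 libraries called 4937 genes by adjusted p alone. Among them were 8 and 5 ERK targets, 4 and 4 ATF4 genes, 7 and 3 lysosome genes, 4 and 0 glycolysis genes and 4 and 4 NRF2 targets.

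**Figure D4:**
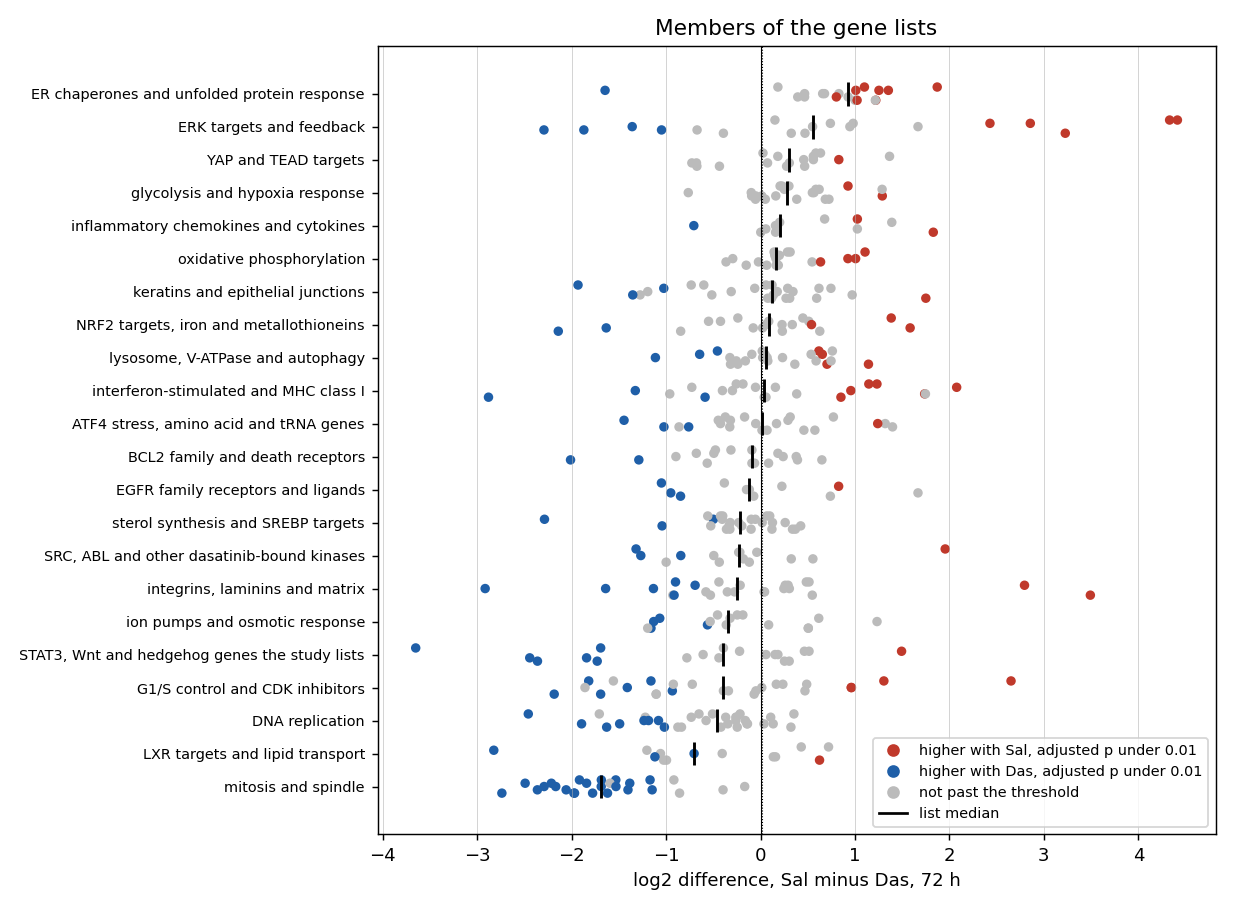
Log2 difference, Sal minus Das at 72 h, of each tested member of the gene lists, with the median of each list as a black bar. The mitosis genes lie at or below -0.168 with a median of -1.69, the ER chaperones have a median of 0.93, and most other lists are centred near 0.

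The control libraries took no part in the choice of the called genes, and their place beside the drugs is described here without a test. The Das mean used here includes replicate 3, which lay closer to the control than the other Das libraries. The shares were not computed without it. For the 508 genes higher with Sal, the control mean lay below both drugs in 360 (70.9%) and between them in 125 (24.6%). For the 663 genes higher with Das, it lay above both drugs in 431 (65.0%) and between them in 211 (31.8%), against 20.8% of all genes tested that had it between. It was nearer to Das than to Sal in 90.7% of the genes higher with Sal and in 88.5% of those higher with Das, and in 75.9% of all genes tested. The S + D mean was nearer to Sal in 85.2% and 85.1% of them and in 70.9% of all genes. FTL is an example, with a control mean of 189.8 CPM and an S + D mean of 1445 CPM, and HSPA5 another, with 374 and 3922 CPM. Of the genes higher with Sal at 72 h, 331 could be tested at 24 h and 284 (85.8%) had the same sign there, with 19 called past both cutoffs. Of those higher with Das, 647 could be tested, 448 (69.2%) had the same sign and 52 were called. Over all 15178 genes tested at both times the sign was the same in 10141 (66.8%), of which 127 were called at 24 h, so that the share for the genes higher with Das lay near that of all genes. The median log2 difference was 0.66 at 24 h against 1.94 at 72 h for the former and -0.38 against -2.0 for the latter.

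Das replicate 3 lay closer to the control than the other Das libraries. For each Das library in turn, genes were called between Sal and the other 3 Das libraries, and the library's place was measured on the log2 scale. Over the called genes with the control more than 1 log2 unit from the other Das libraries (between 195 and 277 genes), replicate 3 had moved a median of 67.3% of the way to the control mean, against 3.65%, -27.6% and -15.2% for the unnumbered library and replicates 1 and 2. On the line to the Sal mean its median was -32.0%, away from Sal, against 8.68%, 25.4% and 16.8%. Each place was measured from the mean of the other 3 Das libraries. For the unnumbered library and replicates 1 and 2 that mean included replicate 3, so their values depend on it as well. Of 15708 genes, 828 lay more than 1 log2 unit from the mean of the other Das libraries in replicate 3, 492 in the unnumbered library, 105 in replicate 1 and 32 in replicate 2. RAB39B, a small GTPase, had 3.51, 6.23, 5.88 and 0.154 CPM with Das, against means of 0.162 CPM in the control and 43.8 CPM with Sal, and KLHDC7B had 15.0, 14.9, 10.5 and 0.555 CPM, against 1.32 and 47.0 CPM. CLCA2, linked to p53, had 7.56, 4.36, 5.99 and 38.2 CPM with Das, against 40.5 CPM in the control and 1.03 CPM with Sal. In these 3 genes, taken from 10 picked because replicate 3 differed most, replicate 3 was near the control mean and the other 3 Das libraries were not. Not all of the 10 did so. EGR1 had 7.40 CPM in replicate 3 against a control mean of 223 CPM, and MFSD2A 4.32 against 17.9 CPM. For FGG the unnumbered Das library (29.9 CPM) lay nearer to the control mean (27.5 CPM) than replicate 3 (17.3 CPM). The log2 difference between the drugs for RAB39B was 3.49 (adjusted p = 0.00221) and 3.09 without replicate 3. For KLHDC7B it was 2.21 (adjusted p = 0.017) and passed without replicate 3 (1.81, adjusted p = 0.000102). For CLCA2 it was -3.74 (adjusted p = 0.00273) and -2.51 without replicate 3 (adjusted p = 0.000898), and the call was lost without Sal replicate 1, 2 or 3 (adjusted p = 0.0139, 0.0108 and 0.0101). The labels give this library the same dose and time as the other Das libraries, and the cause of its place was not tested.

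**Figure D5:**
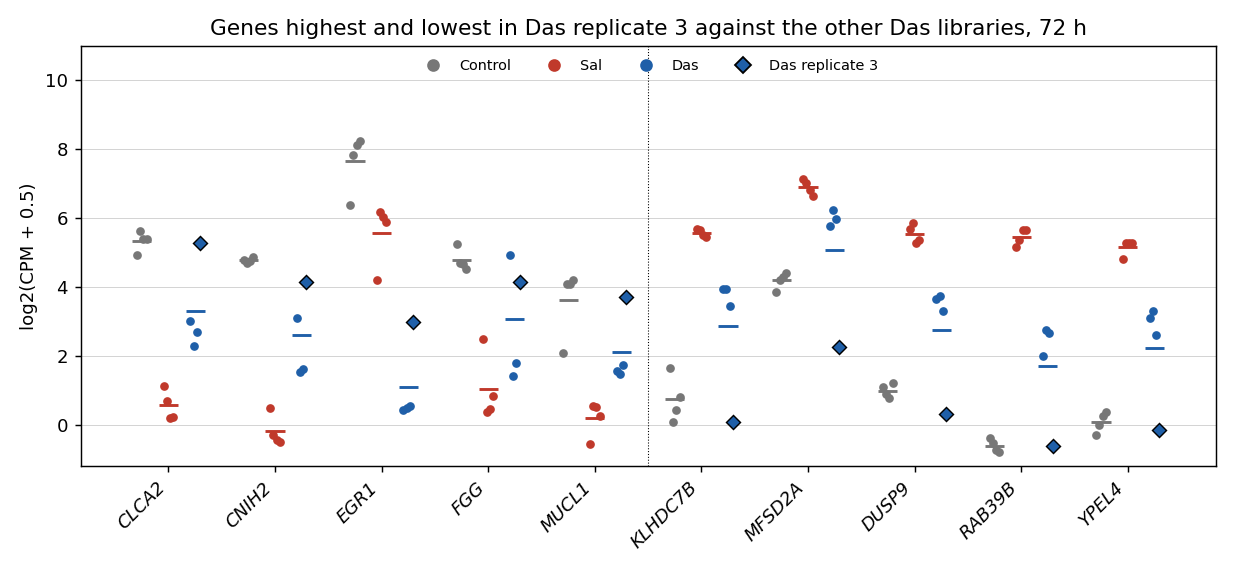
Level of the 10 genes that differed most in Das replicate 3 from the median of the other Das libraries, as log2(CPM + 0.5) in each 72 h library of the control, Sal and Das, with Das replicate 3 as a diamond. For RAB39B, replicate 3 lies at 0.154 CPM beside a control mean of 0.162 CPM, away from the other Das libraries.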

How the data were processed

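RNA of MDA-MB-468 cells was sequenced in 32 libraries, of which the 4 of Sal and the 4 of Das at 72 h were compared here. The authors deposited raw counts of reads per Ensembl gene (48804 identifiers, 46537 matched to the annotation), whole numbers without normalization. The submitters' processing notes name bcl2fastq 2.19, STAR 2.5.2, Cufflinks 2.1.1, DESeq2 and GRCh37. The counting program, the annotation it used and whether it read strand are not given in the sources used here, so reads of overlapping genes or paralogs could not be told apart, and the share of exon bases that a gene shares with others is given where it is large (also CCNE2 37.1%, EBP 36.4%, FXYD3 38.1%, FAS 25.7%, ICAM1 25.4%). FPKM values were not used here.

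Counts were fitted with edgeR 4.0.16 (limma 3.58.1, R 4.3.3), with TMM factors and filterByExpr (minimum count 10). Genes were tested by quasi-likelihood and adjusted by Benjamini-Hochberg over all genes tested, with the 8 libraries compared and no covariate. The 24 h libraries were fitted likewise, and the change between the times was an interaction term over 16 libraries. CPM used the TMM factors of the 16 libraries of a time point, so levels of 24 h and 72 h were scaled separately. The fits were tested on simulated data. The named genes are the 8 largest in each direction with at least 5 CPM and no overlap, up to 3 called members with the smallest p in each list, the G1/S genes that the study shows, and 5 genes each that rose or fell most in Das replicate 3. Other genes named were chosen after their values were seen. The members and lists were chosen with earlier results of these data known. The p-values measure the spread between the libraries of a condition. Promoters are the 250 bases before the start from RefSeq on GRCh38.p14. The alternatives were DESeq2 1.42.0, RLE factors, no filter, other cutoffs, wider fits, a replicate block, a batch term or omission of the unnumbered libraries, and each library left out. A fit of the numbered libraries without Das replicate 3 was added after seeing the data. Some genes that the rule names are not reported here.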

Additional observations from a re-analysis of the deposited data

Results flagged for a closer look

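In groups of 4 libraries, a single library stood away from the other 3 in 29 of 190 groups of named genes, by its gap relative to the range of the group, where chance gives about 1 in 20. The named genes include 10 picked because Das replicate 3 differed most from the other Das libraries, which fixes part of this number in advance, and without the Das groups of these genes it was 26 of 180. Of the 29, the unnumbered Sal library accounted for 13 and Das replicate 3 for 12, of which 3 were in the picked genes. Sal replicate 1 accounted for 2, and Sal replicate 3 and the unnumbered Das library for 1 each. Among cell cycle genes, the unnumbered Sal library was high for CCNA2 (19.6 CPM), CDC25A (9.66), E2F1 (37.8), E2F7 (5.29), RFC5 (17.7), RRM2 (61.1), TOP2A (81.0) and TYMS (48.3), and Das replicate 3 was high for CCNA2 (125 CPM), CCND1 (97.7), CCNE2 (42.8), CENPE (137), E2F8 (42.1), RBL1 (42.0), RRM2 (395) and SKP2 (64.6). Beyond the cell cycle, Das replicate 3 was high for CLCA2 (38.2 CPM), EGR1 (7.40) and MUCL1 (12.5) and low for the tRNA synthetase WARS1 (116, against 219 to 237 in the others). The unnumbered Sal library was high for CNIH2 (0.889 CPM), DDIT4L (2.47), FGG (5.11) and FXYD3 (211) and low for YPEL4 (27.5, against 38.1 to 38.6). Sal replicate 1 was high for AMOTL2 (224 CPM) and SNCAIP (0.345), Sal replicate 3 for E2F8 (16) and the unnumbered Das library for BST2 (8.99).

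The Sal to Das difference itself changed between 24 h and 72 h in 531 genes by an interaction test past both cutoffs, as described for the mitosis genes.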

How the results depend on the processing

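The 508 genes higher with Sal and 663 higher with Das became 504 and 669 with RLE factors, 566 and 719 with DESeq2, 660 and 798 without a filter, 1175 and 1410 with looser cutoffs (adjusted p under 0.05, log2 difference above 1) and 1531 and 1813 by adjusted p alone. The 3344 genes by adjusted p under 0.01 became 6172 under 0.05, 5367 with all libraries of the time point in the fit, 5340 with a batch term for the unnumbered libraries and 5775 in the numbered libraries without Das replicate 3, where 488 and 560 genes passed both cutoffs. The 160 genes of 24 h became 242 with all libraries, 278 in the numbered libraries, 282 with the batch term, 455 with looser cutoffs and 406 by adjusted p alone. The 531 genes whose difference changed between the times became 825, 1097, 833, 1476 and 841 in the same order, and 876 in the numbered libraries without Das replicate 3. The cause of these shifts was not tested, except that looser cutoffs admit more genes by construction.

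With 1 library left out, the counts ranged from 356 to 569 toward Sal, from 417 to 782 toward Das, from 1520 to 3314 by adjusted p alone, from 100 to 215 at 24 h and from 248 to 880 for the change. The lowest counts of 72 h followed the loss of Sal replicate 1 of 72 h. The lowest count at 24 h followed that of Das replicate 1 or 2 of 24 h, and the lowest for the change that of Sal replicate 1 of 24 h. Of 1519 values of 95 named genes under 16 alternatives, 0 reversed, 89 lost their call and 34 gained one.

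With the replicate block the counts were 580 and 659, 4828 by adjusted p alone, 254 at 24 h and 722 for the change. Deviations of Sal and Das libraries with the same number correlated at 0.623 (unnumbered), 0.131, 0.445 and 0.0751. Pairs with different numbers lay between -0.64 (Sal replicate 3 with the unnumbered Das library) and 0.503 (Sal replicate 3 with Das replicate 2). Not every pair with the same number exceeded 0.1, and the main fit took no pairing into account. Across all conditions of 72 h, the 6 pairs of unnumbered libraries correlated at 0.622 to 0.713. The pairs of replicates 1, 2 and 3 lay at -0.101 to 0.222, 0.233 to 0.445 and -0.124 to 0.42. What the unnumbered libraries shared was thus left in the spread of the main fit.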
